A study of Mus musculus with 11 samples.

Results

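RNA of metanephric mesenchyme was set against RNA of ureteric bud, the paired tissues whose exchange of signals starts the kidney, with attention to secreted factors, receptors, channels and enzymes outside the classic markers of either tissue. Both were taken at E11.5 from embryos of wild-type C57BL/6 mice, were separated by hand dissection and were turned into stranded libraries of total RNA. These are 2 of the 11 samples of a series whose other samples profile histone marks. Of those, 4 were used here at the promoters of genes that differ in RNA: H3K4me3 and H3K27me3 of Cited1-RFP+ cap mesenchyme, sorted from Cited1nuc-TagRFP-T kidneys at E18.5, and of Hoxb7-GFP+ ureteric epithelium, sorted from Hoxb7myr-Venus/+ kidneys at E15.5. Each tissue has 1 RNA sample and 1 deposited column of values, so no difference has a replicate check and none was tested. The depth of the libraries is unknown, because the deposited values are FPKM (fragments scaled by transcript length and by all mapped fragments) and not counts.

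The values of transcripts that match a reference transcript, or share a splice junction with one, were summed per gene. This gave 32748 genes, with 10800 at 1 FPKM or more in metanephric mesenchyme and 11140 at that level in ureteric bud. The difference used throughout is log2(FPKM + 1) in metanephric mesenchyme minus log2(FPKM + 1) in ureteric bud, which shrinks the differences of weakly expressed genes. A gene is called 4-fold higher in a tissue when this difference reaches 2 and the gene has at least 2 FPKM in the higher library. No difference is given for a gene listed at 0 in a library.

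In the mouse, the metanephric mesenchyme releases factors that draw the ureteric bud out of the nephric duct and make it branch. The bud tips in turn keep the surrounding mesenchyme alive and prompt part of it to turn into epithelium, from which the nephrons form. The bud is a polarised tube with tight junctions, and it becomes the collecting duct system. The mesenchyme at this stage is a mixture of nephron progenitors, stromal progenitors and early vessel cells.

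Marker genes bore out both labels. Of 13 metanephric mesenchyme markers, 12 were 4-fold higher in metanephric mesenchyme, with a summed level of 319 FPKM in metanephric mesenchyme and 5.13 FPKM in ureteric bud. All 13 ureteric bud markers were 4-fold higher in ureteric bud, with 28.2 FPKM in metanephric mesenchyme and 2907 FPKM in ureteric bud. The mesenchyme library also held stroma, with 13 of 14 stroma markers 4-fold higher there (664 FPKM in metanephric mesenchyme, 24.2 FPKM in ureteric bud). Of 15 endothelial markers all were above the bud level in metanephric mesenchyme and 4 were 4-fold higher (70.3 FPKM in metanephric mesenchyme, 15.4 FPKM in ureteric bud). Of 16 blood markers, 3 were 4-fold higher in metanephric mesenchyme (153 FPKM in metanephric mesenchyme, 16.8 FPKM in ureteric bud), which were the embryonic globin genes Hba-x, Hbb-y and Hbb-bh1. In bulk tissue, fewer cells of a type and less RNA per cell cannot be told apart.

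Of 10687 genes at 2 FPKM or more, 327 (3.06%) were 4-fold higher in metanephric mesenchyme and 569 (5.32%) were 4-fold higher in ureteric bud. Among the 10097 protein-coding ones, 207 (2.05%) were 4-fold higher in metanephric mesenchyme and 466 (4.62%) were 4-fold higher in ureteric bud. For 220 of the calls towards metanephric mesenchyme and 479 of those towards ureteric bud, the intervals that Cuffdiff deposited for the most abundant transcript did not overlap. The lean towards the bud depended on the scale of the columns: the median difference of genes expressed in both tissues was -0.45, and with that median set to 0 the counts were 375 genes for metanephric mesenchyme and 397 for ureteric bud. Among protein-coding genes with a promoter listed in RefSeq, this rescaling moved the counts less far. They went from 145 to 177 for metanephric mesenchyme and from 355 to 224 for ureteric bud, so a lean towards the bud stayed. Outside a list of classic kidney markers, the 12 genes with the largest differences towards metanephric mesenchyme were all small RNAs, with transcripts of 53 to 71 bases. Of the 12 towards ureteric bud, 11 were small RNAs, with transcripts of 54 to 77 bases. The accounts that follow are of protein-coding genes.

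Among protein-coding genes with transcripts of 300 bases or longer, and again outside the list of classic markers, which holds Aldh1a2, Wt1 and Meis1, the largest differences towards metanephric mesenchyme were those of Shisa3 and Cped1. Shisa3, whose family restrains Wnt and FGF receptors in the frog embryo, had 83.3 FPKM in metanephric mesenchyme and 0.432 FPKM in ureteric bud, a difference of 5.88. Cped1, which encodes a protein with a cadherin-like domain, had 71.1 FPKM in metanephric mesenchyme and 0.445 FPKM in ureteric bud. Further down came Crabp1, a binding protein for retinoic acid, with 41.5 FPKM in metanephric mesenchyme and 0.499 FPKM in ureteric bud, and Fat4, a giant protocadherin, with 21.7 FPKM in metanephric mesenchyme and 0.154 FPKM in ureteric bud. The fibrillar collagen genes Col3a1 and Col1a1 and the tropomyosin gene Tpm2 were in the same group. Des, which encodes the muscle filament desmin, had 31.1 FPKM in metanephric mesenchyme and 0.142 FPKM in ureteric bud. It was the only 1 of 13 muscle markers that was 4-fold higher, and Myod1, Myf5 and Myh3 were listed at 0 in both libraries.

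In the same ranking, which leaves out classic markers with larger differences such as Calb1, the genes furthest towards ureteric bud included a cell-cycle arrest gene and genes of the epithelial surface. Rprm, a mediator of arrest in G2 phase, had 0.576 FPKM in metanephric mesenchyme and 153 FPKM in ureteric bud, a difference of -6.61. Mal2, a carrier of apical transport, had 0.0411 FPKM in metanephric mesenchyme and 58.3 FPKM in ureteric bud. The tight junction gene Ocln had 0.0752 FPKM in metanephric mesenchyme and 43.7 FPKM in ureteric bud. Crb3, an organiser of the apical membrane, was listed at 0 in metanephric mesenchyme and had 35.6 FPKM in ureteric bud. The neuronal calcium sensor gene Vsnl1 had 0.0391 FPKM in metanephric mesenchyme and 40.0 FPKM in ureteric bud, and the stress kinase gene Mapk13 had 0.146 FPKM in metanephric mesenchyme and 37.3 FPKM in ureteric bud.

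A short sequence was more frequent near the starts of bud genes than near those of mesenchyme genes. The letters CAGGTG, an E-box that Snail and ZEB repressors are known to bind in epithelial genes, lay within 250 bases before to 50 bases after a listed start in 17 of 145 genes that were 4-fold higher in metanephric mesenchyme (11.7%) and in 151 of 355 that were 4-fold higher in ureteric bud (42.5%). The share was 19.8% of the 8191 protein-coding genes at 2 FPKM or more and 20.2% of all 32851 listed promoters. Both strands were searched, and the letters do not overlap with themselves or with another E-box of the CANNTG form, though they can overlap with TGACAGG, a Meis-type motif that was also searched. Promoter sequences are those of RefSeq (GRCm38.p6), which listed a promoter for 145 of the 207 and 355 of the 466 genes. Upstream sequences of 5 bud genes that hold the letters and of 2 mesenchyme receptor genes that do not are shown 5′ to 3′, each the 250 bases before a start, with CAGGTG or its reverse complement CACCTG in capitals.
Spint2, chr7:29281978-29282227, minus strand: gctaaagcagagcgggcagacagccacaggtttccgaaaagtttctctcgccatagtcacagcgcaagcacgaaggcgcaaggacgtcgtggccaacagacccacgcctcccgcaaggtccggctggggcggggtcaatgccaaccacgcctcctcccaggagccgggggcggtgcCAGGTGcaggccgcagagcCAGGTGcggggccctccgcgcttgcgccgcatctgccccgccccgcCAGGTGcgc
Crb3, chr17:57061951-57062200, plus strand: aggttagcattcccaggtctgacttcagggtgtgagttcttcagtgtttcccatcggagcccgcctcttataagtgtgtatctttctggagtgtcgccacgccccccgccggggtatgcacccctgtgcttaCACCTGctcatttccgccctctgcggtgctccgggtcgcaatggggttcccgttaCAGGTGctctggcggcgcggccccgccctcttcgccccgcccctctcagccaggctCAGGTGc
Kcnk1, chr8:125994852-125995101, plus strand: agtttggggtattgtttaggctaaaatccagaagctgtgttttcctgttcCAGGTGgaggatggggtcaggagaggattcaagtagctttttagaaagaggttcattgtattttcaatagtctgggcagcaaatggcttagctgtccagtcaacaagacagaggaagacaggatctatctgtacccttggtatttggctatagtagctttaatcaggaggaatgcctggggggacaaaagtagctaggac
Trpv4, chr5:114658422-114658671, minus strand: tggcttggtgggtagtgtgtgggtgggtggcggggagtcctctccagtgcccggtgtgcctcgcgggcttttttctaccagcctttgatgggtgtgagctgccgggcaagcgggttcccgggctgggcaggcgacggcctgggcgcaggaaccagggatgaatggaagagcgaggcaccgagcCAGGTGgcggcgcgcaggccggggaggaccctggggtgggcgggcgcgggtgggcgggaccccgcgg
Scnn1g, chr7:121734229-121734478, plus strand: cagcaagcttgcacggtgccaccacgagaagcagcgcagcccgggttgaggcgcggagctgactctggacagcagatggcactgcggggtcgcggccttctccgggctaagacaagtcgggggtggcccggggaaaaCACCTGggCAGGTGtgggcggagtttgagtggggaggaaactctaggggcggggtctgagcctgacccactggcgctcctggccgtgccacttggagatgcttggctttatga
Ngfr, chr11:95587699-95587948, minus strand: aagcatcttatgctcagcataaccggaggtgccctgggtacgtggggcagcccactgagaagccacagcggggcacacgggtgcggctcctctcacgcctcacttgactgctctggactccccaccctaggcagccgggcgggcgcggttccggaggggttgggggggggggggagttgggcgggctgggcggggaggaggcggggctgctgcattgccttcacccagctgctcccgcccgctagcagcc
Calcrl, chr2:84425267-84425516, minus strand: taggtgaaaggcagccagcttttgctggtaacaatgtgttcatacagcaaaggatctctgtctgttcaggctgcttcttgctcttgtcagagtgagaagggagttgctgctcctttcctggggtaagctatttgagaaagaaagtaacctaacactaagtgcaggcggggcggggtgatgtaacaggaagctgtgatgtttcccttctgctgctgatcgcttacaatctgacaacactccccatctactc
Spint2 holds the letters 3 times, 74, 55 and 9 bases before the start, and Crb3 holds them 3 times before the start shown. Kcnk1 and Trpv4 hold them once, and Scnn1g holds them once on each strand, 113 and 105 bases before the start.

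The share of genes with CAGGTG changed with the size of the RNA difference. From the 67 genes above a difference of 3 towards metanephric mesenchyme to the 51 genes at -4 or below, it ran 8.96%, 14.1%, 15.1%, 15.8%, 18.3%, 25.7%, 42.2%, 34.6% and 56.9%. These ends stand for 6 of 67 genes on the mesenchyme side and 29 of 51 on the bud side, the second with an exact binomial interval (95%, counting error over genes only) of 42.2% to 70.7%. The letters CAGCTG, another E-box, were in 23.4% of genes 4-fold higher in metanephric mesenchyme, 20.0% of those 4-fold higher in ureteric bud and 16.5% of all. GC content moved little, with median values of 62.7% in the mesenchyme genes, 62.3% in the bud genes and 61.7% in all. When promoters were divided by GC content into 3 equal parts, then within the lowest part CAGGTG was in 6.00% of mesenchyme genes and 34.2% of bud genes. Within the highest part it was in 17.0% of mesenchyme genes and 45.9% of bud genes. The motif was 1 of 22 searched, and the list was written after RNA values had been seen. A match describes letters only and is neither a bound site nor a cause.

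**Figure D1:**
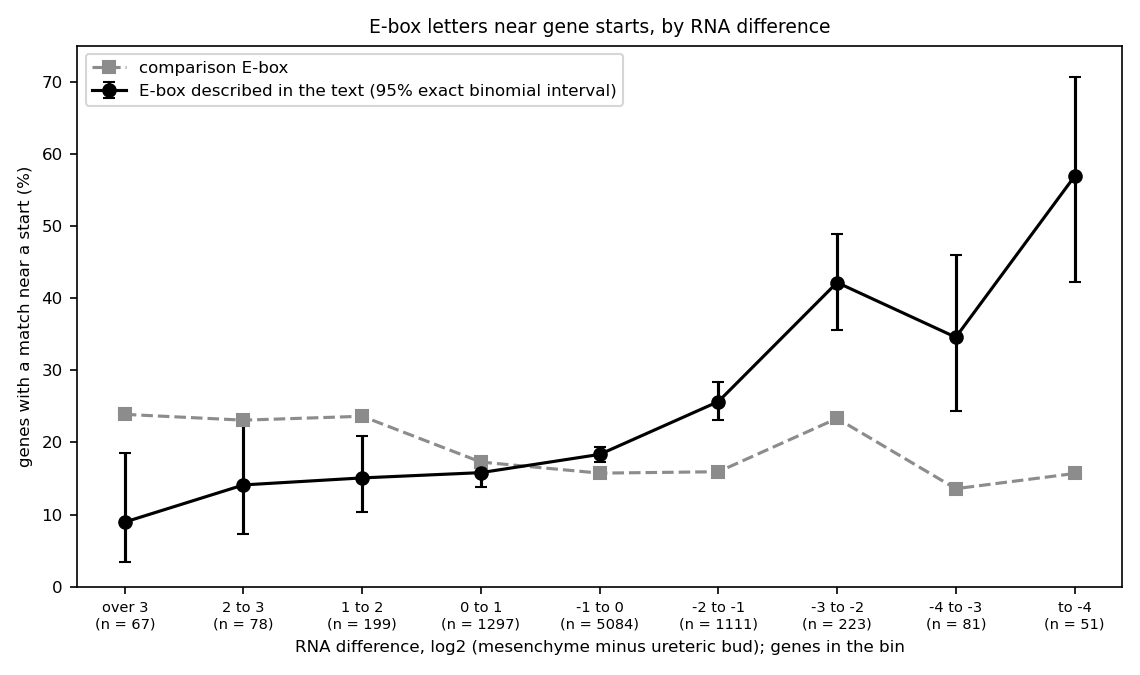
Share of protein-coding genes (y axis, percent) with the E-box CAGGTG (black circles, 95% exact binomial intervals) or CAGCTG (grey squares) near a listed start, by bin of RNA difference (x axis, log2 metanephric mesenchyme minus ureteric bud; number of genes under each bin). The black points lie between 8.96% and 15.8% in the 4 bins above 0 and reach 56.9% in the bin at -4 or below, while the grey points stay between 13.6% and 23.9%.

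Secreted factors were called towards both tissues. Of 122 measured at 2 FPKM or more, out of 595 in the list, 13 were 4-fold higher in metanephric mesenchyme (10.7%, against 2.05% of protein-coding genes) and 17 were 4-fold higher in ureteric bud (13.9%, against 4.62%), and their median difference was 0.05. With the median of all genes set to 0, the counts were 16 for metanephric mesenchyme and 15 for ureteric bud, so which tissue had more calls turned. The corresponding median over protein-coding genes expressed in either tissue was -0.47. The list of secreted factors leaves out the classic signals of kidney induction, such as Gdnf and the Wnt and FGF ligands. It also holds membrane-anchored proteins, Fras1 and Frem2 among the bud calls, so its shares are not those of secreted proteins alone.

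Matrix glycoproteins made up most of the mesenchyme side, with 8 of 42 members 4-fold higher in metanephric mesenchyme (19.0%) and 5 in ureteric bud (11.9%). Over protein-coding genes, these shares were 2.05% and 4.62%. Tgfbi, a collagen-binding protein induced by TGF-beta (chr13:56609586-56639359 in GRCm38.p6), had 48.6 FPKM in metanephric mesenchyme and 0.696 FPKM in ureteric bud, a difference of 4.87, and the deposited intervals were 42.3 to 54.9 FPKM in metanephric mesenchyme and 0.364 to 1.03 FPKM in ureteric bud. Nid1, a basement membrane linker, had 8.87 FPKM in metanephric mesenchyme and 0.418 FPKM in ureteric bud. Pcolce, which speeds the trimming of procollagen, had 8.29 FPKM in metanephric mesenchyme and 0.939 FPKM in ureteric bud. Fbn1 and Mfap4, genes of the microfibrils, were also 4-fold higher in metanephric mesenchyme. Fn1, which encodes fibronectin, was abundant in both, with 62.0 FPKM in metanephric mesenchyme and 65.8 FPKM in ureteric bud.

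The FRAS1 and FREM proteins, which act together as a complex beneath embryonic epithelia, were divided between the tissues. Frem1 had 13.1 FPKM in metanephric mesenchyme and 0.411 FPKM in ureteric bud, a difference of 3.32, although the authors' table gives a failed status for it. Frem2 had 2.40 FPKM in metanephric mesenchyme and 70.2 FPKM in ureteric bud, a difference of -4.39. Fras1 had 4.92 FPKM in metanephric mesenchyme and 24.2 FPKM in ureteric bud, a difference of -2.09. The secreted partner was thus high in metanephric mesenchyme, and both membrane-anchored partners were high in ureteric bud. Npnt, the bud ligand of integrin alpha 8 beta 1, stood with Frem2, at 1.65 FPKM in metanephric mesenchyme and 88.9 FPKM in ureteric bud.

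Signalling ligands with 4-fold differences were few in number, but few were measured at 2 FPKM or more. Of 3 chemokines at that level, 1 was 4-fold higher in each tissue. Of 7 PDGF, VEGF and EGF family ligands, 1 was 4-fold higher in each tissue (14.3%). In ureteric bud, 2 of 9 interleukins and other cytokines (22.2%) and 2 of 6 peptide hormones and neuropeptides (33.3%) were 4-fold higher, with none in metanephric mesenchyme. Pgf, a ligand of the VEGF receptor FLT1, had 17.1 FPKM in metanephric mesenchyme and 0.413 FPKM in ureteric bud, a difference of 3.68. The chemokine gene Cxcl12 lay just past the threshold, with 54.8 FPKM in metanephric mesenchyme and 12.7 FPKM in ureteric bud, a difference of 2.03. Its relative Cxcl14 was on the other side, with 0.0656 FPKM in metanephric mesenchyme and 15.4 FPKM in ureteric bud. Kitl, the stem cell factor, had 2.29 FPKM in metanephric mesenchyme and 42.9 FPKM in ureteric bud, a difference of -3.74. The EGF receptor ligand Tgfa had 0.619 FPKM in metanephric mesenchyme and 6.46 FPKM in ureteric bud. Stc2, a glycoprotein hormone, had 0.449 FPKM in metanephric mesenchyme and 12.8 FPKM in ureteric bud. Of 19 neurotrophins and other growth factors at 2 FPKM or more, 1 was 4-fold higher in metanephric mesenchyme (5.26%) and none in ureteric bud. The shares of protein-coding genes were 2.05% and 4.62%, in that order. Mdk, a heparin-binding growth factor and the most abundant member, had 587 FPKM in metanephric mesenchyme and 1283 FPKM in ureteric bud, a difference of -1.13, and its relative Ptn had 54.0 FPKM in metanephric mesenchyme and 57.9 FPKM in ureteric bud.

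Proteases and their inhibitors were 4-fold higher in metanephric mesenchyme for 2 of 36 members (5.56%) and in ureteric bud for 6 (16.7%). The shares of protein-coding genes were 2.05% and 4.62%, in that order. Plat, which encodes tissue plasminogen activator, had 16.3 FPKM in metanephric mesenchyme and 0.144 FPKM in ureteric bud, and the metalloprotease gene Adamts12 had 7.85 FPKM in metanephric mesenchyme and 0.0303 FPKM in ureteric bud. In ureteric bud, inhibitors and proteases of the epithelial surface were high together. Spint2, a Kunitz inhibitor whose promoter is shown above, had 1.32 FPKM in metanephric mesenchyme and 86.9 FPKM in ureteric bud, a difference of -5.24. Spint1, its relative, had 0.0614 FPKM in metanephric mesenchyme and 22.1 FPKM in ureteric bud. The protease genes they control followed: St14, which encodes matriptase, had 0.0103 FPKM in metanephric mesenchyme and 23.9 FPKM in ureteric bud, and Prss8, which encodes prostasin, had 0.279 FPKM in metanephric mesenchyme and 14.1 FPKM in ureteric bud. Tmprss2, a related membrane protease, was listed at 0 in metanephric mesenchyme and had 5.68 FPKM in ureteric bud. The WAP-domain gene Wfdc15b was also listed at 0 in metanephric mesenchyme, against 47.8 FPKM in ureteric bud.

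**Figure D2:**
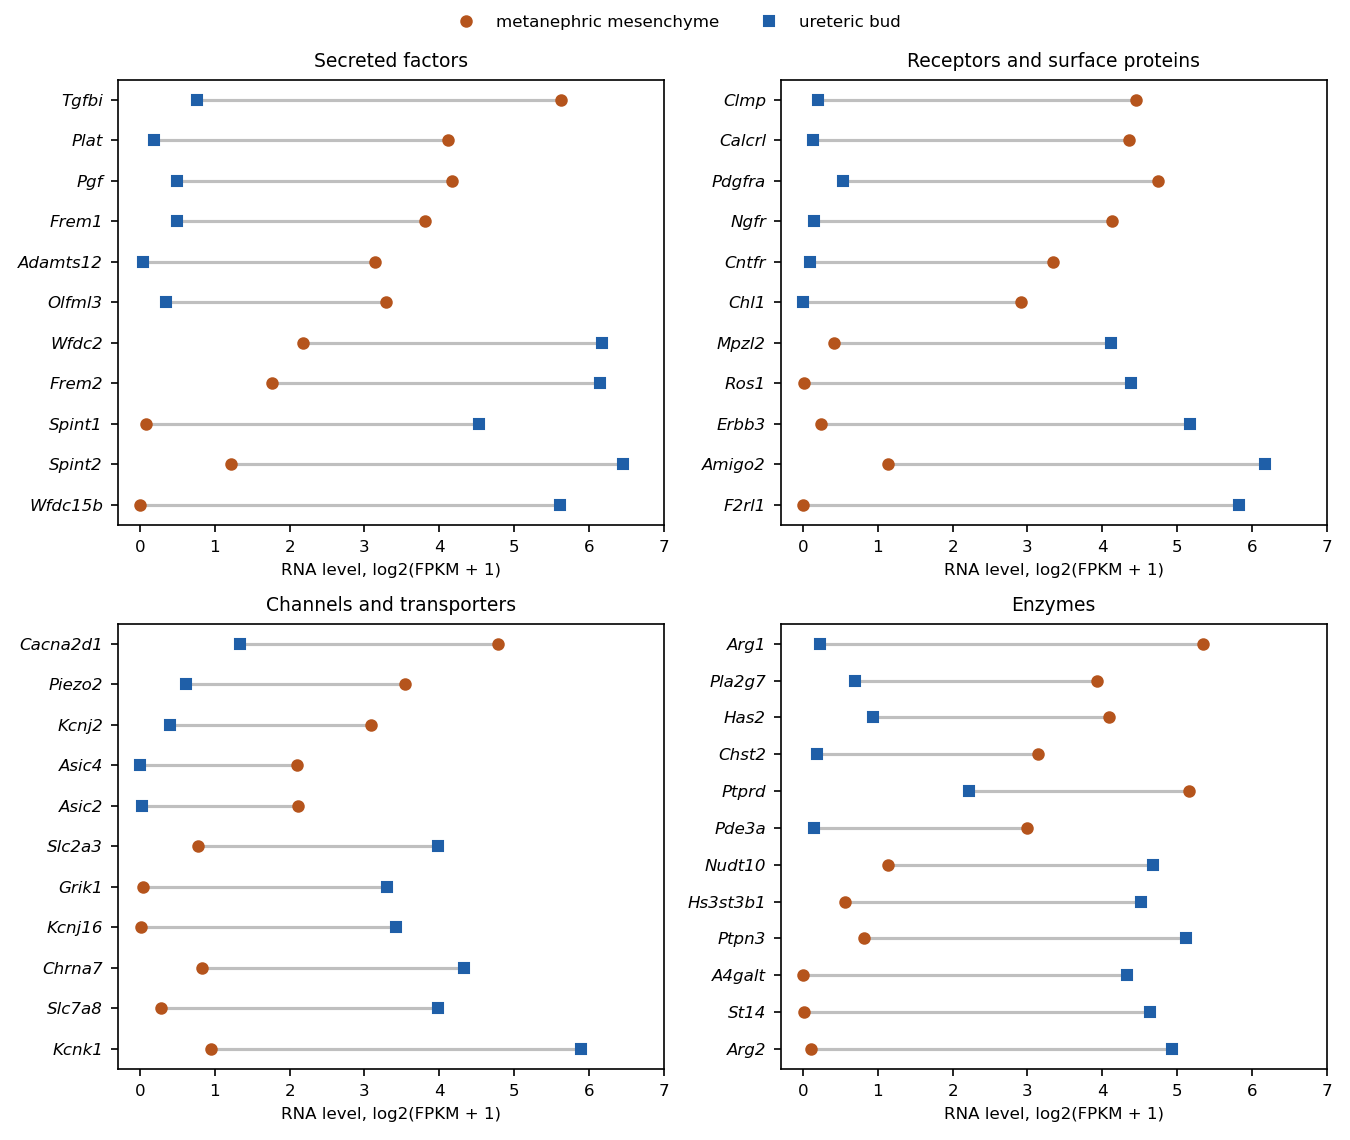
RNA level (x axis, log2(FPKM + 1)) in metanephric mesenchyme (circles) and ureteric bud (squares) of up to 6 genes with large differences in each direction in each of 4 functional classes, with genes ordered by their difference. Each symbol is 1 library and the grey line joins the levels of a gene. Genes at the top, such as Tgfbi, are near 0 in ureteric bud, and genes at the bottom, such as Wfdc15b, F2rl1, Kcnk1 and Arg2, are near 0 or low in metanephric mesenchyme.

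Receptors and surface proteins were also called towards both tissues. Of 185 at 2 FPKM or more, out of 693, 17 were 4-fold higher in metanephric mesenchyme (9.19%, against 2.05% of protein-coding genes). In ureteric bud 30 were 4-fold higher (16.2%, against 4.62%), Epcam, a classic bud marker, among them. The median difference of the class was -0.36. With the median of all genes set to 0, the counts were 22 for metanephric mesenchyme and 20 for ureteric bud, so which tissue had more calls turned with the scaling. Receptor tyrosine kinases outside the Ret, Fgfr and Eph families had 4 of 26 members 4-fold higher in metanephric mesenchyme (15.4%) and 2 in ureteric bud (7.69%).

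Pdgfra, a receptor for platelet-derived growth factors and a marker of mesenchyme, had 25.8 FPKM in metanephric mesenchyme and 0.456 FPKM in ureteric bud, a difference of 4.20. Calcrl, the receptor that takes adrenomedullin or calcitonin gene-related peptide depending on its partner, had 19.5 FPKM in metanephric mesenchyme and 0.0998 FPKM in ureteric bud, a difference of 4.22. Its partner for adrenomedullin, Ramp2, had 18.3 FPKM in metanephric mesenchyme and 4.05 FPKM in ureteric bud. Calcr, the calcitonin receptor of the same family, was on the other side, at 0.0232 FPKM in metanephric mesenchyme and 4.40 FPKM in ureteric bud. Kdr, the main VEGF receptor of endothelium, had 8.87 FPKM in metanephric mesenchyme and 0.868 FPKM in ureteric bud, and Cd34, a sialomucin of vessels and progenitors, had 18.7 FPKM in metanephric mesenchyme and 3.68 FPKM in ureteric bud. Endothelial markers moved with these genes as a list, with none of the 15 at 0 and all above the bud level, and their part in the result was not tested. Cdh5, which encodes the cadherin of endothelial junctions, had 7.97 FPKM in metanephric mesenchyme and 0.760 FPKM in ureteric bud.

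Some receptors best known from neurons were also on the mesenchyme side. Ngfr, the low-affinity neurotrophin receptor, had 16.5 FPKM in metanephric mesenchyme and 0.109 FPKM in ureteric bud, a difference of 3.98. Cntfr, the ciliary neurotrophic factor receptor, had 9.14 FPKM in metanephric mesenchyme and 0.0644 FPKM in ureteric bud, a difference of 3.25. Lifr, its signalling partner, had 11.4 FPKM in metanephric mesenchyme and 0.849 FPKM in ureteric bud, a difference of 2.74. Chl1, an axonal adhesion molecule, had 6.54 FPKM in metanephric mesenchyme and 0.00467 FPKM in ureteric bud. Of 15 neuron and neural crest markers, 13 were above the bud level in metanephric mesenchyme and 2 were 4-fold higher, Isl1 and Stmn2, with a sum of 30.2 FPKM in metanephric mesenchyme and 7.75 FPKM in ureteric bud. Sox10, the defining gene of crest-derived glia, had 0.295 FPKM in metanephric mesenchyme and 0.0135 FPKM in ureteric bud, while Dbh, Hand2, Stmn3 and Th were listed at 0 in ureteric bud. The part of these cells in the result was not tested.

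On the bud side the receptors were of several families. Erbb3, the neuregulin receptor, had 0.184 FPKM in metanephric mesenchyme and 35.3 FPKM in ureteric bud, a difference of -4.94. Ros1, a receptor kinase, had 0.00764 FPKM in metanephric mesenchyme and 19.9 FPKM in ureteric bud, a difference of -4.38. F2rl1, a receptor that serine proteases switch on by cleavage, was listed at 0 in metanephric mesenchyme and had 56.0 FPKM in ureteric bud, of which 79.2% came from a transcript of 367 bases that shares a junction with the reference without matching it. Ednrb, an endothelin receptor, had 1.39 FPKM in metanephric mesenchyme and 15.2 FPKM in ureteric bud, a difference of -2.77. Gpr39, a zinc-sensing receptor, had 0.0153 FPKM in metanephric mesenchyme and 7.10 FPKM in ureteric bud.

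Surface adhesion proteins had 7 of 76 members 4-fold higher in metanephric mesenchyme (9.21%, against 2.05% of protein-coding genes) and 16 in ureteric bud (21.1%, against 4.62%). Close relatives could lie on opposite sides. Ncam1, the neural cell adhesion molecule, had 41.1 FPKM in metanephric mesenchyme and 9.22 FPKM in ureteric bud, a difference of 2.04. L1cam, of the same immunoglobulin superfamily as Chl1, had 0.286 FPKM in metanephric mesenchyme and 15.4 FPKM in ureteric bud, a difference of -3.67. Clmp, a junctional adhesion protein, had 20.9 FPKM in metanephric mesenchyme and 0.149 FPKM in ureteric bud, whereas F11r, which encodes the junctional adhesion molecule JAM-A, had 6.41 FPKM in metanephric mesenchyme and 40.7 FPKM in ureteric bud. Amigo2, a leucine-rich repeat adhesion protein, had 1.20 FPKM in metanephric mesenchyme and 71.4 FPKM in ureteric bud, a difference of -5.04. The laminin receptor Bcam had 3.16 FPKM in metanephric mesenchyme and 46.4 FPKM in ureteric bud.

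Known ligands and receptors were also set side by side, as 27 pairs chosen after the values had been seen. The pairs are examples, and no count over them describes ligands and receptors at large. St14 and F2rl1 were a pair with both partners 4-fold higher in ureteric bud. The 3 pairs shown with a 4-fold higher ligand in metanephric mesenchyme had receptors that differed less than 4-fold. For Cxcl12 these were Cxcr4, with 7.44 FPKM in metanephric mesenchyme and 28.8 FPKM in ureteric bud, and Ackr3, with 7.47 FPKM in metanephric mesenchyme and 8.81 FPKM in ureteric bud. For Pgf it was Flt1, with 3.50 FPKM in metanephric mesenchyme and 0.521 FPKM in ureteric bud. Kit, the receptor of Kitl, had 6.62 FPKM in metanephric mesenchyme and 16.5 FPKM in ureteric bud, so both partners of that pair were above the mesenchyme level in ureteric bud.

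For some receptors with large differences, the ligands chosen for the pairs had little RNA in either tissue. Other ligands of these receptors were not surveyed. Beside Erbb3, its ligand Nrg1 had 0.501 FPKM in metanephric mesenchyme and 0.304 FPKM in ureteric bud. Beside Calcrl, Adm had 0.248 FPKM in metanephric mesenchyme and 0.0576 FPKM in ureteric bud. Pdgfra differed from these, since its ligand Pdgfc had 22.5 FPKM in metanephric mesenchyme and 19.6 FPKM in ureteric bud and Pdgfa had 3.41 FPKM in metanephric mesenchyme and 10.1 FPKM in ureteric bud.

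**Figure D3:**
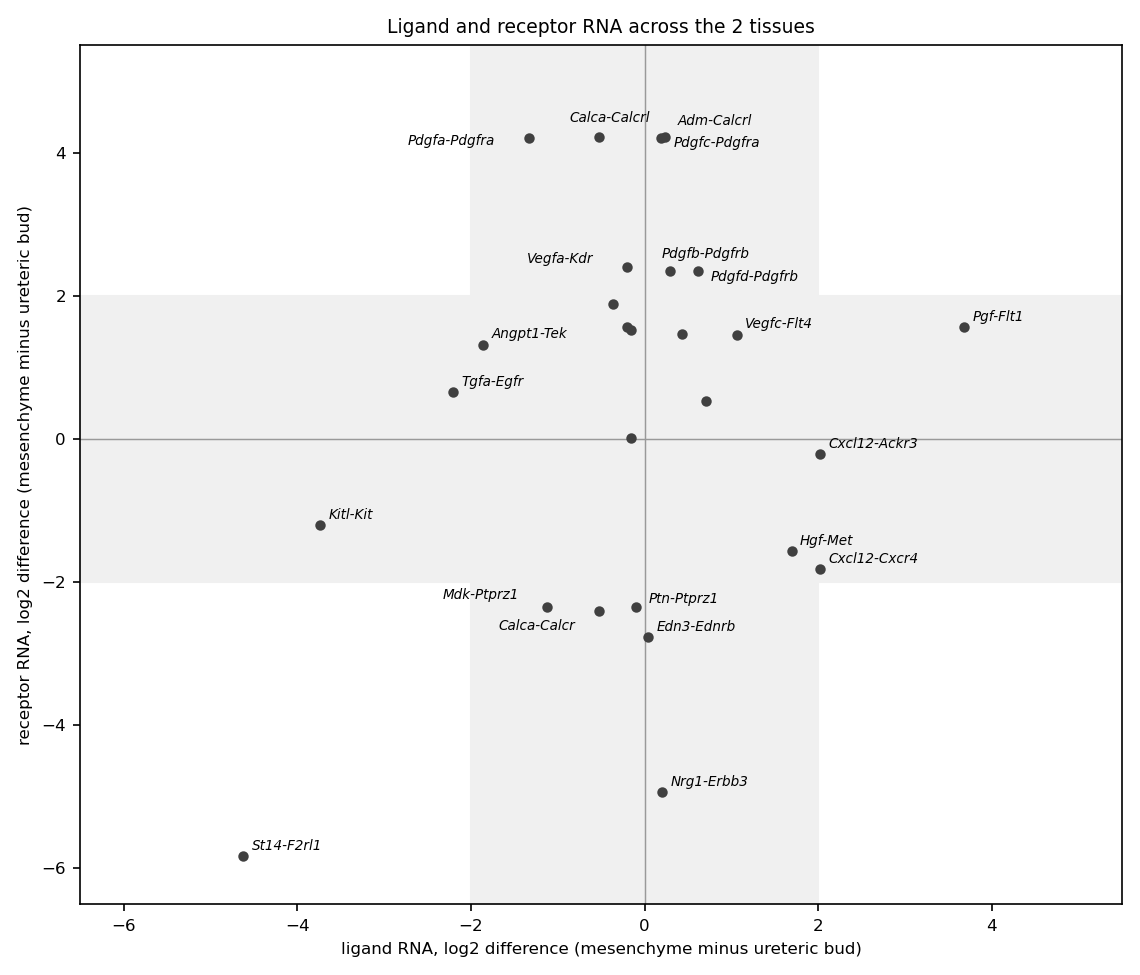
RNA difference of the receptor (y axis) against that of its ligand (x axis) for 27 known pairs, both as the level of metanephric mesenchyme minus that of ureteric bud in log2(FPKM + 1), with differences below 4-fold shaded. Each point is 1 pair, and pairs with a ligand difference of at least 1 or a receptor difference of at least 2 in size are named. Pgf with Flt1 lies far to the right with a receptor difference inside the shading and St14 with F2rl1 lies at the lower left.

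Channels and transporters were called mainly towards ureteric bud. Of 268 at 2 FPKM or more, out of 882, 5 were 4-fold higher in metanephric mesenchyme (1.87%) and 27 in ureteric bud (10.1%), with a median difference of -0.59. The count for metanephric mesenchyme was near the 2.05% of protein-coding genes, and after setting the median of all genes to 0 the counts were 9 for metanephric mesenchyme and 19 for ureteric bud. Solute carriers, the largest family, had none of 141 members 4-fold higher in metanephric mesenchyme and 7 in ureteric bud, close to the background of 4.62%.

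Ion channels accounted for most of the bud calls. Kcnk1, a potassium leak channel whose promoter holds the E-box once, had 0.931 FPKM in metanephric mesenchyme and 58.7 FPKM in ureteric bud, a difference of -4.95. The deposited intervals of its most abundant transcript were 0.317 to 1.24 FPKM in metanephric mesenchyme and 43.9 to 58.0 FPKM in ureteric bud. Kcnj16, an inward rectifier of tubular epithelium, had 0.00871 FPKM in metanephric mesenchyme and 9.72 FPKM in ureteric bud. Kcnk5, another leak channel, had 0.770 FPKM in metanephric mesenchyme and 10.5 FPKM in ureteric bud. Potassium channels as a family had 1 of 12 members 4-fold higher in metanephric mesenchyme (8.33%) and 4 members 4-fold higher in ureteric bud (33.3%). The shares of protein-coding genes were 2.05% and 4.62%, in that order. However, the median difference of the 21 potassium channels at 1 FPKM or more in either tissue was 0.41, towards metanephric mesenchyme. The cation channel gene Trpv4, which responds to cell swelling, had 0.0767 FPKM in metanephric mesenchyme and 7.54 FPKM in ureteric bud, and the calcium channel gene Trpv6 had 0.0249 FPKM in metanephric mesenchyme and 4.04 FPKM in ureteric bud. Receptors best known from neurons were in the same group. Chrna7, an acetylcholine-gated channel, had 0.775 FPKM in metanephric mesenchyme and 19.2 FPKM in ureteric bud, and the glutamate-gated channel gene Grik1 had 0.0297 FPKM in metanephric mesenchyme and 8.85 FPKM in ureteric bud. In all, 4 of 8 ligand-gated channels were 4-fold higher in ureteric bud and none in metanephric mesenchyme.

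Subunits of the epithelial sodium channel, by which the collecting duct takes up sodium, were at low levels. Scnn1g was listed at 0 in metanephric mesenchyme and had 4.43 FPKM in ureteric bud, and Scnn1b was listed at 0 in metanephric mesenchyme and had 2.18 FPKM in ureteric bud. Scnn1a, which encodes the alpha subunit of the pore, had 0.373 FPKM in metanephric mesenchyme and 0.154 FPKM in ureteric bud. RNA of the beta and gamma subunits was thus listed in ureteric bud with little of the alpha subunit. Prss8, a protease known to activate this channel, was itself 4-fold higher in ureteric bud.

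Transporters of sugars, amino acids and sodium were among the bud calls. Slc2a1, the basal glucose transporter, had 9.93 FPKM in metanephric mesenchyme and 78.6 FPKM in ureteric bud, a difference of -2.86. Slc2a3, a glucose transporter of high affinity, had 0.712 FPKM in metanephric mesenchyme and 14.8 FPKM in ureteric bud. Slc7a8, a neutral amino acid exchanger, had 0.216 FPKM in metanephric mesenchyme and 14.8 FPKM in ureteric bud, a difference of -3.70. Atp1b1, the beta subunit of the sodium pump, had 0.790 FPKM in metanephric mesenchyme and 13.6 FPKM in ureteric bud.

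The mesenchyme side held 5 channel genes. Cacna2d1, an auxiliary subunit of calcium channels, had 26.7 FPKM in metanephric mesenchyme and 1.54 FPKM in ureteric bud, a difference of 3.45. Piezo2, a pressure-gated channel of touch neurons, had 10.6 FPKM in metanephric mesenchyme and 0.537 FPKM in ureteric bud, a difference of 2.92. Kcnj2, an inward rectifier, had 7.48 FPKM in metanephric mesenchyme and 0.315 FPKM in ureteric bud, a difference of 2.69. The acid-sensing channel genes Asic2, with 3.31 FPKM in metanephric mesenchyme and 0.0214 FPKM in ureteric bud, and Asic4, with 3.30 FPKM in metanephric mesenchyme and 0 FPKM in ureteric bud, completed the group.

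**Figure D4:**
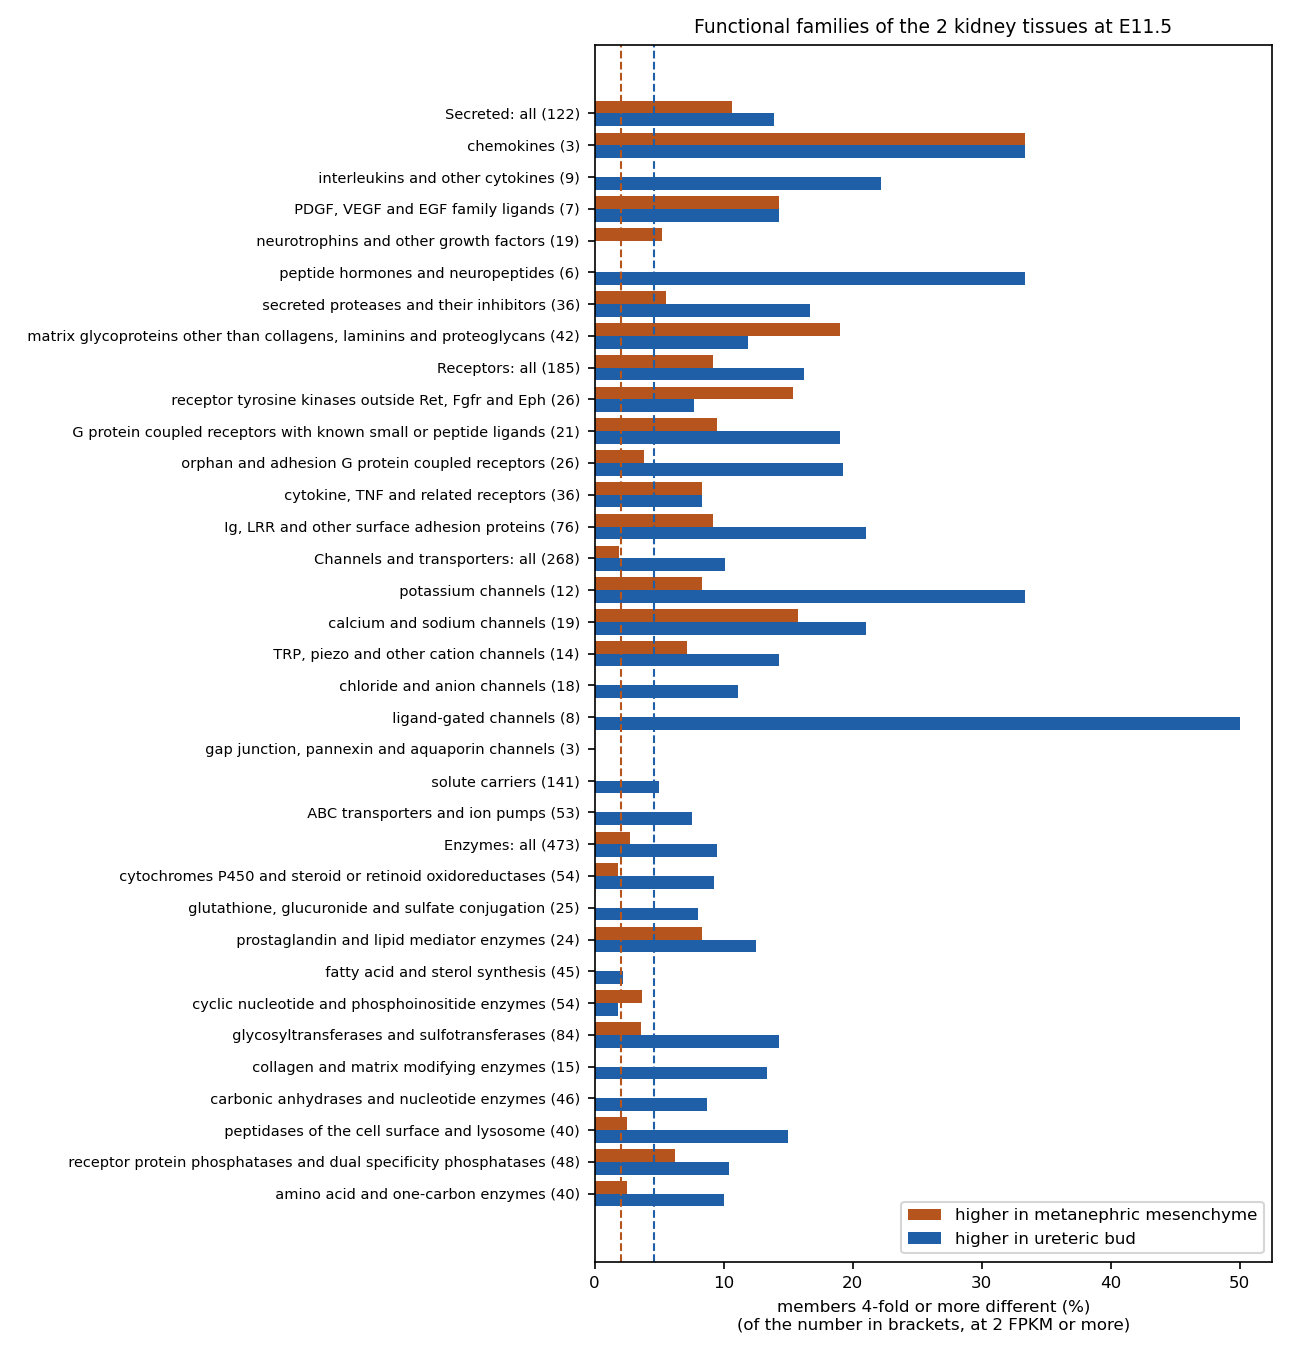
Share of the members of each functional family that were 4-fold higher in metanephric mesenchyme (upper bars) or in ureteric bud (lower bars), in percent of the members at 2 FPKM or more, whose number is in brackets. The dashed lines mark the 2.05% and 4.62% of all protein-coding genes; the blue bar of the solute carriers ends near its line, while 4 of 8 ligand-gated channels and 8 of 42 matrix glycoproteins stand well beyond theirs.

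Enzymes were called mostly towards ureteric bud, and several families were divided between the tissues by paralogue. Of 473 at 2 FPKM or more, out of 1138, 13, the classic gene Eya1 among them, were 4-fold higher in metanephric mesenchyme (2.75%) and 45 in ureteric bud (9.51%), with a median difference of -0.62. The mesenchyme share was near the 2.05% of protein-coding genes, whose bud share was 4.62%. Setting the median of all genes to 0 left 14 for metanephric mesenchyme and 26 for ureteric bud.

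The arginases, which split arginine into ornithine and urea, were divided between the tissues. Arg1, the cytosolic form (chr10:24915207-24927470), had 39.8 FPKM in metanephric mesenchyme and 0.175 FPKM in ureteric bud, a difference of 5.12, with deposited intervals of its most abundant transcript of 33.9 to 45.7 FPKM in metanephric mesenchyme and 0 to 0.407 FPKM in ureteric bud. Arg2, the mitochondrial form (chr12:79130788-79156301), had 0.0803 FPKM in metanephric mesenchyme and 29.5 FPKM in ureteric bud, a difference of -4.82, with intervals of 0 to 0.302 FPKM in metanephric mesenchyme and 24.2 to 34.9 FPKM in ureteric bud. Each tissue thus had 1 arginase well expressed and the other near 0. The urea cycle enzyme Ass1, which makes the precursor of arginine, had 0.110 FPKM in metanephric mesenchyme and 0.431 FPKM in ureteric bud, and the ornithine-using enzyme gene Odc1 had 9.22 FPKM in metanephric mesenchyme and 16.1 FPKM in ureteric bud.

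Retinaldehyde dehydrogenases, which make retinoic acid, were divided in the same manner. Aldh1a2 had 101 FPKM in metanephric mesenchyme and 0.901 FPKM in ureteric bud, a difference of 5.75. Aldh1a3 had 0.153 FPKM in metanephric mesenchyme and 57.8 FPKM in ureteric bud, a difference of -5.67. Aldh1a1 was listed at 0 in metanephric mesenchyme and had 58.2 FPKM in ureteric bud, although reads of its close copy Aldh1a7 may be shared with it.

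Enzymes of glycan synthesis were found on both sides. Glycosyltransferases and sulfotransferases had 3 of 84 members 4-fold higher in metanephric mesenchyme (3.57%, against 2.05% of protein-coding genes). Towards ureteric bud 12 members were called (14.3%, against 4.62%). Xylt1, which starts the sugar chains of proteoglycans, had 14.3 FPKM in metanephric mesenchyme and 1.23 FPKM in ureteric bud. Has2, a hyaluronan synthase, had 16.0 FPKM in metanephric mesenchyme and 0.911 FPKM in ureteric bud, a difference of 3.16, whereas its relatives Has1 and Has3 were below 0.5 FPKM in both libraries. Hs3st3b1, which adds a late sulfate to heparan chains, had 0.474 FPKM in metanephric mesenchyme and 21.8 FPKM in ureteric bud, a difference of -3.95. Its relative Hs3st3a1 had 0.0763 FPKM in metanephric mesenchyme and 4.34 FPKM in ureteric bud. A4galt, which makes the glycolipid Gb3, was listed at 0 in metanephric mesenchyme and had 19.2 FPKM in ureteric bud.

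Phosphatases, peptidases and lipid enzymes completed the class. Eya4, of the eyes absent family of phosphatases and transcription cofactors, had 26.0 FPKM in metanephric mesenchyme and 0.430 FPKM in ureteric bud, a difference of 4.24. Ptprd, a receptor phosphatase, had 34.8 FPKM in metanephric mesenchyme and 3.67 FPKM in ureteric bud, a difference of 2.94. Dusp6, the phosphatase that dampens ERK and is induced by it, had 11.8 FPKM in metanephric mesenchyme and 106 FPKM in ureteric bud, a difference of -3.06. Ptpn3, a cytosolic phosphatase, had 0.768 FPKM in metanephric mesenchyme and 33.9 FPKM in ureteric bud, a difference of -4.30. Surface and lysosomal peptidases had 1 of 40 members 4-fold higher in metanephric mesenchyme and 6 in ureteric bud, against 2.05% and 4.62% of protein-coding genes for those tissues. Dpp4 was among the 6, with 0.0885 FPKM in metanephric mesenchyme and 10.6 FPKM in ureteric bud. Pla2g7, which degrades platelet-activating factor, had 14.2 FPKM in metanephric mesenchyme and 0.626 FPKM in ureteric bud. Of the called class members, only Pla2g7 and the collagen receptor gene Ddr2 had overlapping deposited intervals for their most abundant transcript.

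Histone marks of the sorted populations were read at the promoters of the same genes. H3K27me3, the mark of Polycomb repression, lay within 1 kb of a start in cap mesenchyme for 15.9% of the 145 genes 4-fold higher in metanephric mesenchyme (interval 10.3% to 22.8%), and in ureteric epithelium for 44.1% of them (35.9% to 52.6%). For the 355 genes 4-fold higher in ureteric bud, the shares were close, 16.9% with the cap mesenchyme list (13.2% to 21.2%) and 16.3% with the ureteric epithelium list (12.6% to 20.6%). Over all 8191 genes they were 2.73% in cap mesenchyme and 4.24% in ureteric epithelium. The mark was therefore more frequent in ureteric epithelium than in cap mesenchyme at mesenchyme genes, while bud genes had nearly the same share in both populations. H3K4me3, the mark of promoters open to transcription, was at 93.8% of the mesenchyme genes in cap mesenchyme and at 89.0% in ureteric epithelium. It was at 91.8% of the bud genes in cap mesenchyme and at 93.8% in ureteric epithelium. Over all 8191 genes H3K4me3 was at 98.1% in cap mesenchyme and at 97.6% in ureteric epithelium, above the shares of both groups. The sorted cells were older than the RNA tissue, and the mark lists came from different ages, which cannot be told apart from the tissue.

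**Figure D5:**
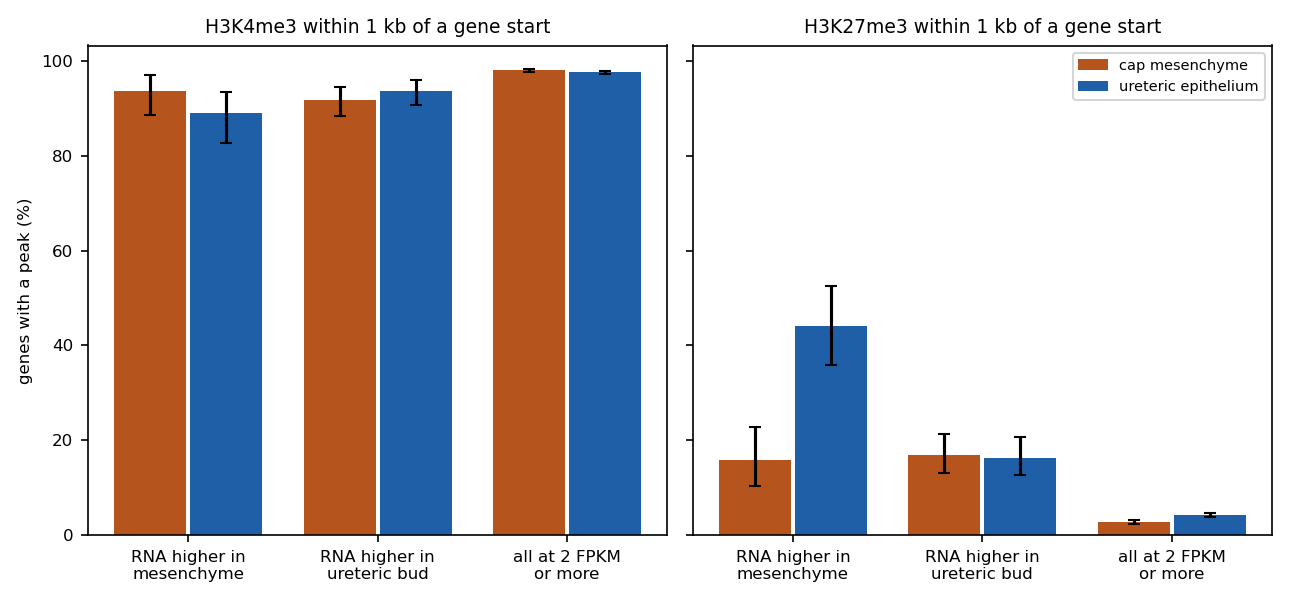
Share of protein-coding genes (y axis, percent) with a H3K4me3 peak (left) or a H3K27me3 peak (right) within 1 kb of a listed start in cap mesenchyme at E18.5 and ureteric epithelium at E15.5, for genes with RNA 4-fold higher in metanephric mesenchyme, genes with RNA 4-fold higher in ureteric bud and all genes at 2 FPKM or more. Error bars are 95% exact binomial intervals over genes, and H3K27me3 in ureteric epithelium at the mesenchyme genes is the tallest bar of the right panel, at 44.1%.

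Among receptors, 8 of the 12 mesenchyme genes with a listed promoter had H3K27me3 in ureteric epithelium and 4 of 12 had it in cap mesenchyme. Of all 146 receptor genes at 2 FPKM or more with a listed promoter, 26 carried H3K27me3 in ureteric epithelium and 16 in cap mesenchyme. Ngfr, Cntfr and Cd34 carried both marks in ureteric epithelium but H3K4me3 alone in cap mesenchyme. Pdgfra had both marks in cap mesenchyme and H3K27me3 alone in ureteric epithelium. Calcrl and Lifr differed from these, with H3K4me3 alone in both populations. Cacna2d1, Cxcl12 and Aldh1a2 had the arrangement of Ngfr. Among bud genes, Spint1, L1cam, Hs3st3b1 and Tmprss2 had both marks in cap mesenchyme and H3K4me3 alone in ureteric epithelium. Of the 355 bud genes, 25 were marked in this way (7.04%, against 1.21% of all 8191 genes). The reverse, which is the arrangement of Ngfr, was found at 23 bud genes (6.48%, against 2.64% of all), with Epcam, Chrna7 and Atp1b1 among them. Kcnk1, A4galt and Scnn1g had both marks in both populations. Spint2, Kitl and Slc2a1 had H3K4me3 alone in both.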

How the data were processed

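RNA levels are FPKM as the authors deposited them in a Cuffdiff table, with a column per tissue. Per the submitters' processing notes, TopHat, Cufflinks and Cuffdiff were used for RNA, and Bowtie2 and MACS for the histone marks, on mm10. Versions, settings and the number of libraries per column are not given in the sources used here. Peaks carry a deposited score, the authors' own value per peak, used only to keep the upper 50% of a list as an alternative. How FPKM were scaled between the columns bears on every difference, as does the mixed cell makeup of dissected tissue.

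Of 138486 transcripts, 131821 had class code = or j. Of these, 106224 were paired with a RefSeq gene by accession, 17901 by locus, and 7696 were left out. A pseudocount of 1 FPKM was used. The 2 FPKM minimum removes no call, since a difference of 2 needs more than that. The 4 classes hold 31 families of genes, and 8 genes are in 2 classes. Promoter positions and sequences were those of RefSeq (GRCm38.p6, the same build as mm10), and a mark needed 1 bp of a peak within 1 kb of any listed start. Intervals are exact Clopper-Pearson. The scripts were checked on simulated data and run with Python 3.11.15, pandas 2.3.3, NumPy 2.4.6 and SciPy 1.17.1.

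The members and gene lists were chosen with earlier results of these data known. The rule named the 12 genes with the largest differences each way and the 6 largest each way of each class, both outside a list of classic kidney markers, and the most extreme of each family. The ranking of protein-coding genes of 300 bases or longer, the ligand and receptor pairs, the motifs and the partner genes given beside a named gene were added after values were seen. Some genes that the rules select, and the pairs they belong to, are not reported here and not drawn, though counts over whole gene lists include them. The stem cell and input samples were not used here.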

Additional observations from a re-analysis of the deposited data

How the results depend on the processing

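With 1 deposited column on each side there is no test and no spread, so these values show only how counts follow the settings. No paired analysis was possible because each tissue has 1 RNA sample, deposited as 1 column. A pseudocount of 0.1 FPKM gave 506 genes 4-fold higher in metanephric mesenchyme and 873 in ureteric bud, with 25 secreted, 33 receptor, 14 channel and 25 enzyme genes for metanephric mesenchyme and 73 enzyme genes for ureteric bud. A pseudocount of 5 FPKM gave 149 genes for metanephric mesenchyme and 212 for ureteric bud, with 3 and 10 secreted, 4 and 10 receptor, 1 and 3 channel and 5 and 11 enzyme genes, in that order of tissues. A 2-fold threshold gave 648 and 1991 genes, with 31 and 36 secreted, 42 and 72 receptor, 18 and 76 channel and 36 and 154 enzyme genes. A minimum of 10 FPKM left 6 secreted, 7 receptor, 2 channel and 8 enzyme genes for metanephric mesenchyme, and 12 channel and 25 enzyme genes for ureteric bud. Every class code gave 8 channel genes for metanephric mesenchyme, and it turned the difference of Cacna1d to 0.57, against -2.19 as reported, by adding other transcripts. Setting the median difference to 0 gave 9 channel genes for metanephric mesenchyme and 26 enzyme genes for ureteric bud. Protein-coding genes alone gave 207 for metanephric mesenchyme.

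A window of 2 kb put H3K27me3 of ureteric epithelium at 54.5% of mesenchyme genes and 22.5% of bud genes, and that of cap mesenchyme at 22.8% of bud genes. The upper 50% of each list by score put H3K4me3 of ureteric epithelium at 60.0% of mesenchyme genes and 75.5% of bud genes, that of cap mesenchyme at 85.6% of bud genes, and H3K27me3 of ureteric epithelium at 11.3% of bud genes. CAGGTG was in 36.3% of bud genes and 17.3% of all genes in the 250 bases before a start, and in 5.13% of mesenchyme genes and 16.0% of all genes with a single listed start; these alternatives were chosen after seeing the data. Of the 245 named 4-fold genes, Cacna1d was the only one to change direction under the settings tried. The 4-fold calls themselves were less stable than the direction. With the median difference set to 0, some named bud genes fell below 4-fold, such as Fras1 at -1.59, F11r at -1.98 and Calcr at -1.99. A gene below 3 FPKM in both libraries cannot pass at a pseudocount of 1.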

Other observations

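Values of further genes counted but not named above are given here. Calb1, a calcium-binding protein of the collecting system, is among the classic bud markers and had 0.478 FPKM in metanephric mesenchyme and 1685 FPKM in ureteric bud. Plod1, a collagen lysyl hydroxylase, had 2.86 FPKM in metanephric mesenchyme and 21.3 FPKM in ureteric bud. Psph, the last step of serine synthesis, had 1.84 FPKM in metanephric mesenchyme and 17.8 FPKM in ureteric bud, and Shmt2, the mitochondrial enzyme that takes serine into one-carbon metabolism, had 7.94 FPKM in metanephric mesenchyme and 37.5 FPKM in ureteric bud. Amino acid and one-carbon enzymes had 1 of 40 members 4-fold higher in metanephric mesenchyme and 4 in ureteric bud, with most members called in neither direction, against 2.05% and 4.62% of protein-coding genes for those tissues. Cyp7b1, an oxysterol hydroxylase, had 0.220 FPKM in metanephric mesenchyme and 8.53 FPKM in ureteric bud, and Mgst1, a membrane glutathione transferase, had 5.59 FPKM in metanephric mesenchyme and 60.2 FPKM in ureteric bud. The sialyltransferase gene St6gal1 had 4.84 FPKM in metanephric mesenchyme and 25.3 FPKM in ureteric bud.

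The CAGGTG letters were also counted within the functional classes, with no test between classes. They lay near a start in 7 of 12 secreted, 14 of 25 receptor, 11 of 23 channel and 10 of 36 enzyme genes that were 4-fold higher in ureteric bud. The exact intervals of these shares overlap (95%, 14.2% to 45.2% for enzymes and 34.9% to 75.6% for receptors). For enzymes the share of 27.8% compares with 21.8% of all 371 enzyme genes at 2 FPKM or more with a listed promoter. For receptors the share of 56.0% compares with 27.4% of 146. The shares of 58.3% for secreted genes and 47.8% for channels compare with 25.3% of 87 and 27.8% of 205, in that order.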
